A study of Arabidopsis thaliana with 6 samples.

Results

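The transcripts of 58 genes for cytosolic ribosomal proteins and for RACK1, a scaffold protein of the small subunit, were followed in *Arabidopsis thaliana* rosette leaves through repeated dehydration. The genes were chosen by locus identifier, as copies of 26 proteins, with earlier results of these data known. They are not every copy, since 9 further genes at least 70% identical to a member, relatives of L7, L8, L9, L28 and S15a, are outside the 58, and sums over the copies of a protein cover the members only. They are 58 of the 33555 genes listed, and comprise 25 genes of the large (60S) subunit, 30 of the small (40S) subunit and 3 RACK1 genes. Each of them had a value above 0 in every library. The samples were leaves from watered plants (W), from plants exposed to dry air over 2 h as a first stress (S1) and from plants in the third such stress (S3), which had recovered in water for 22 h after each of the earlier stresses. Each condition had 2 biological replicates, 6 libraries in all. All plants were grown in potting soil with a 12-h photoperiod and are labelled with the ecotype Col-0 and at once with the genotype WS. The W plants were taken after overnight conditioning out of soil, and no watered plants kept out of soil for as long as the S3 plants were among the libraries. W was also sequenced with longer reads than S1 and S3, so that in the comparisons with W the read length and the stress cannot be told apart.

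The cytosolic ribosome is built from a 40S subunit, which reads the mRNA, and a 60S subunit, which joins amino acids into protein. In Arabidopsis almost every ribosomal protein is encoded by several paralogs that make nearly the same protein, so that the mRNA for a protein is the sum over its gene copies. Cells adjust the making of ribosomes to growth, and ribosomal protein genes are commonly expressed in concert. RACK1 is a WD40-repeat protein that sits on the head of the 40S subunit, where it links translation to signalling.

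Transcript levels are given as FPKM, fragments scaled to the length of the transcript and to the mapped fragments of the library, as calculated by the authors per gene and replicate. Read counts per gene were not used, so no counting error is given for single values, and the W libraries were sequenced less deeply than those of S1 and S3. Between 21139 and 22457 genes had a value above 0 in a library. Changes were tested on log2(FPKM + 1) with limma over 24759 genes and 6 libraries. They are given as log2 fold changes with their standard error (SE) and with p-values adjusted over all genes by the Benjamini-Hochberg method. A gene was called lower or higher when its adjusted p was at most 0.05 and the absolute value of its log2 fold change reached 1. Over the 14373 genes that reached 5 FPKM in some condition, the median change on the log2 scale was 0.09 in S1/W, 0.01 in S3/S1 and 0.14 in S3/W, and the values below include this shift.

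The replicates of a condition differed for these genes as a group. In W, replicate 1 was above replicate 2 in 58 of the 58 genes, with a median log2 ratio of 0.53, whereas the median over the 14373 genes was -0.005. Replicate 1 was the higher in 55 of 58 genes in S1 (median log2 ratio 0.28) and in 54 of 58 in S3 (median 0.23). The summed FPKM of the 58 genes was 11694 and 8128 in the W libraries, 5961 and 4934 in S1, and 4332 and 3639 in S3. This was 1.25% and 0.912% of the FPKM of all genes in W, 0.612% and 0.508% in S1, and only 0.461% and 0.406% in S3. The conditions did not overlap in this sum, although the W replicates lay farther apart than the replicates of S1 or of S3.

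**Figure D1:**
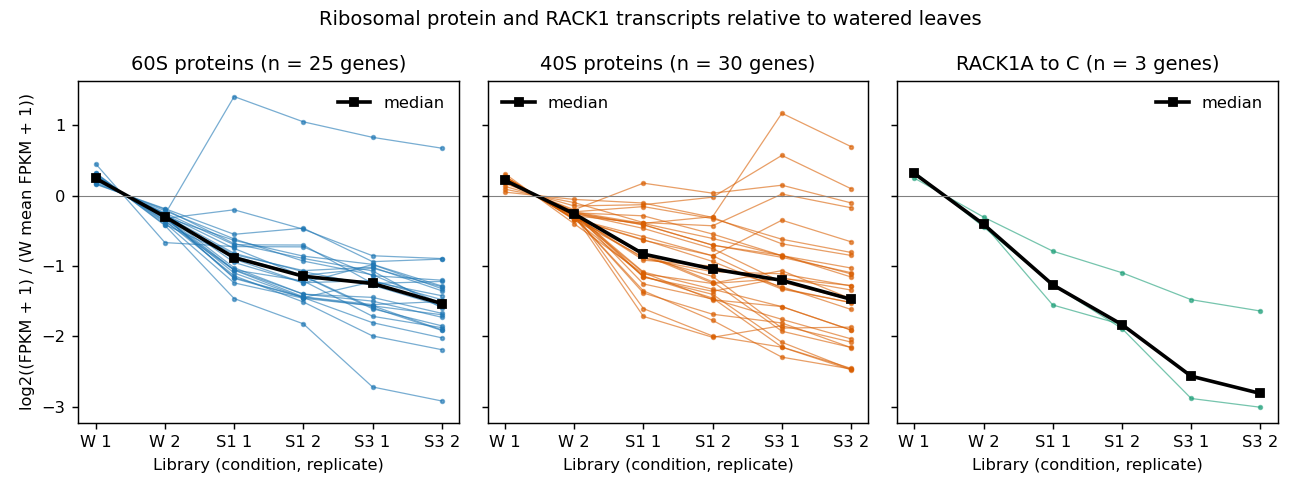
Level of each gene in each library, as log2((FPKM + 1) / (W mean FPKM + 1)), in 3 panels for the 60S proteins, the 40S proteins and RACK1. Thin lines are genes and the black line is their median. Most lines lie below 0 in the S1 and S3 libraries, with 1 line above 0 in S1 among the 60S genes (SAG24) and 1 that is highest in S3 among the 40S genes (AT5G39850), and in nearly every line replicate 1 of a condition lies above replicate 2.

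In S1 relative to W, 26 of the 58 genes (44.8%) were lower, 1 gene, SAG24, was higher, and 31 were not called. Among all genes tested, 12.1% were lower and 13.7% higher by the same criteria, or 15.6% and 11.5% once the values were adjusted for GC content and length of the transcripts. The median log2 fold change of the 58 genes was -0.97, and 56 of them had a negative value. The calls depended on single libraries. Without W replicate 1, 11 genes were lower (10.6% of all genes) and the median was -0.69, without W replicate 2 it was 39 genes, and without S1 replicate 2 it was 5 genes (9.78% of all genes), with a median of -0.83.

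From the first to the third stress few of the genes changed by the criteria. In S3 relative to S1, 4 genes (6.90%) were lower and 1 was higher, close to the 6.71% lower and 5.55% higher among all genes. The median was -0.47, and 53 of the 58 values were negative. None of these 5 calls was kept when either S1 library or either S3 library was left out, where between 4.59% and 6.0% of all genes were still lower. S3/S1 and S1/W share the S1 libraries.

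Against the watered plants, the third stress gave the lowest levels. In S3 relative to W, 43 of the 58 genes (74.1%) were lower, compared with 14.4% of all genes, and the median was -1.36. No gene was higher by limma with these criteria, compared with 15.3% of all genes. At an unadjusted p of at most 0.05, 52 genes were lower and 2 higher, and the shares of all genes at this level are not given here. Between 30 and 50 genes were lower when each library was left out in turn. Ribosomal protein transcripts are abundant, so 2832 genes whose mean over the 6 libraries reached 50 FPKM were set beside them. Of these, 16.6% were lower in S1/W and 25.8% in S3/W, while among the 47 of the 58 genes at this level 44.7% and 76.6% were lower. Chosen by their W level alone, which favours genes that then decline, 2420 genes reached 50 FPKM, of which 31.2% were lower in S1/W and 44.7% in S3/W, compared with 44.9% and 77.6% of 49 of the 58 genes. In S3/S1, 6.38% of the 47 were lower against 16.6% of the 2832, and 6.12% of the 49 against 16.1% of the 2420. The medians in S3/S1 stood the other way, at -0.48 for the members in both selections against -0.15 for the 2832 genes and -0.28 for the 2420. In whole leaves, fewer cells of a type and less RNA per cell cannot be told apart.

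**Figure D2:**
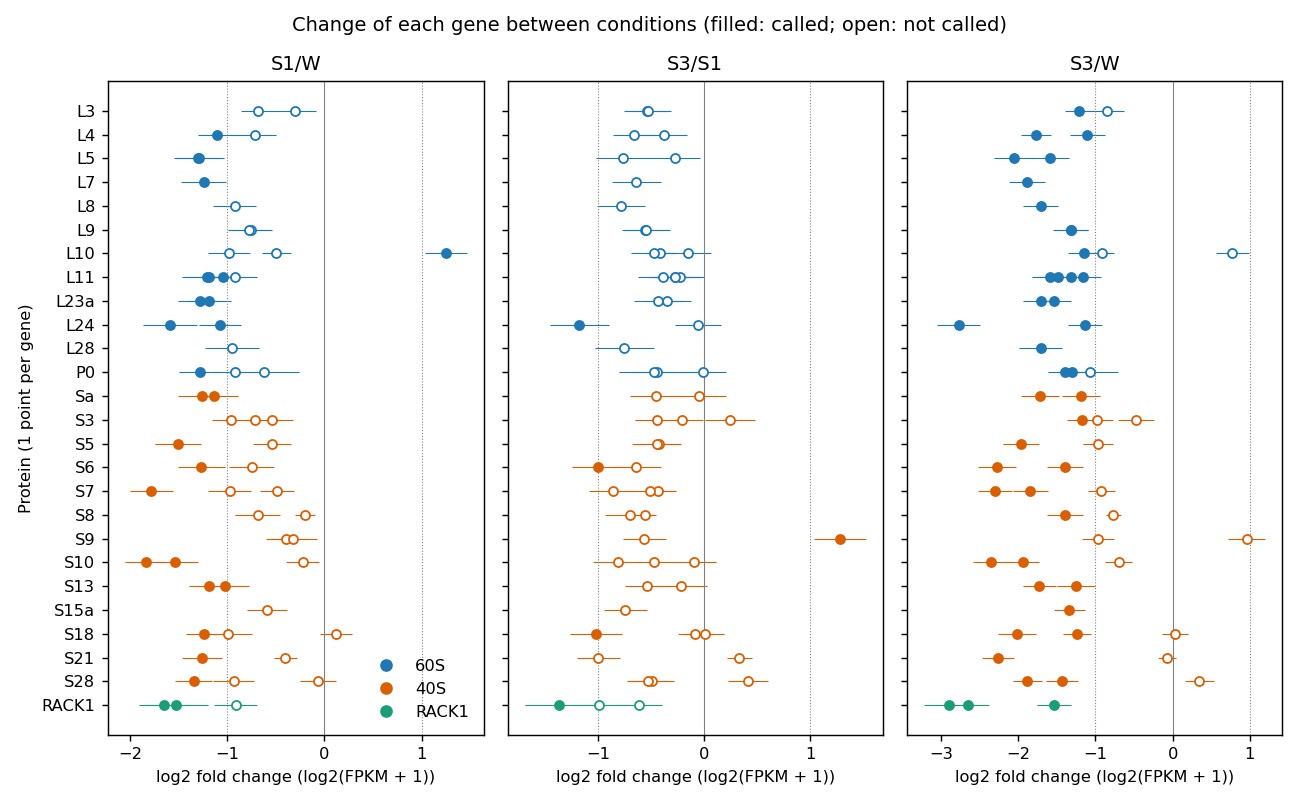
Log2 fold change with its SE for every gene, grouped by protein, in S1/W, S3/S1 and S3/W. Filled points are called genes, open points are not, and dotted lines mark -1 and 1. Nearly all points lie left of 0 in S1/W and S3/W, and the paralogs of L10, L24, S9, S10, S18, S21 and S28 lie far apart.

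By the response signs of the 2 steps, where = stands for no call, 23 genes were [-/=], 3 were [-/-], 1 was [+/=], 1 was [=/+], 1 was [=/-] and 29 were [=/=]. The shares of these classes among all genes are not given here, so the counts only describe the members. The 3 [-/-] genes were RPL24A, RPS6 and RACK1C_AT. Several genes lay at the threshold between S3 and S1. RPS6 (AT4G31700) was at -1.004 and called, AT3G53890 was at -0.998 and AT1G48630 at -0.995, both just short of it. RPS6 and the [=/-] gene PFL also missed the threshold when libraries were scaled to the same sum, at -0.92 and -0.94.

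Among the 60S proteins, 12 of 25 genes were lower in S1/W, 1 in S3/S1 and 21 in S3/W. L3 and L8 lie close to the centre where peptide bonds form. The L8 gene EMB2296 stood at 390.4 and 278 FPKM in W, at 198 and 151 in S1 and at 109 and 92.0 in S3. L5 and L11 bind the 5S ribosomal RNA. The L5 gene ATL5 was at 371 and 239 FPKM in W, at 138 and 106 in S1 and at 75.9 and 66.2 in S3, and fell to 23.3% of its W mean. Its paralog RPL5B fell to 32.0%. The 4 genes of L11 differed widely in level, from 12.8 FPKM in W for RPL16A to 102 for RPL16B, but in S3 they all stood at between 29.6% and 43.4% of W. L23a lines the exit of the peptide tunnel, and both of its genes were lower in S1/W and S3/W. The L7 gene AT2G01250 retained 26.4% of its W mean in S3 and the L28 gene AT2G19730 29.6%. The L3 gene AT1G43170, at 333 and 221 FPKM in W, still had 54.4% of its W mean in S3 and was not called in any comparison.

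P0 anchors the stalk of the 60S subunit, to which the acidic proteins P1 and P2 bind and which recruits the elongation factors. The main P0 gene, AT3G09200, was at 323 and 225 FPKM in W, at 155 and 129 in S1 and at 113 and 92.0 in S3. It held at least 90.1% of the P0 transcripts in each library. Its log2 fold change was -0.93 (SE 0.22, adjusted p = 0.0182 by limma) in S1/W, just short of the threshold, and -1.40 (SE 0.22, adjusted p = 0.00394) in S3/W. AT3G11250 was at 31.8 and 21.6 FPKM in W, at 11.3 and 9.15 in S1 and at 10.9 and 9.34 in S3. AT3G11250 changed by -1.29 (SE 0.22, adjusted p = 0.00576) in S1/W and by -0.01 in S3/S1, and the first call was lost without S1 replicate 2 (adjusted p = 0.0584). AT2G40010 was barely detected, at 3.59 and 1.11 FPKM in W, at 1.03 and 1.03 in S1 and at 0.525 and 0.459 in S3, and its -1.06 in S3/W did not pass the test (adjusted p = 0.0536). A share of 37.4% of its 75-base stretches lies in an overlapping RNA gene on the opposite strand, and the strand used in counting is not given in the sources used here, so its values are uncertain.

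Among the 40S proteins, 12 of 30 genes were lower in S1/W, 2 in S3/S1 and 19 in S3/W, and 1 was higher in S3/S1. S6 is the subunit protein that S6 kinase phosphorylates downstream of TOR. Its gene RPS6 was at 316 and 208 FPKM in W, at 118 and 94.95 in S1 and at 58.3 and 47.0 in S3. This was a decline at both steps, by -1.27 (SE 0.24, adjusted p = 0.00934 by limma) and by -1.004 (SE 0.24, adjusted p = 0.0334). The first call was lost without W replicate 1 or without S1 replicate 2, and the second without any of the S1 and S3 libraries. EMB3010, its paralog, declined to 37.1% of W in S3, compared with 20.1% for RPS6. S3 and S9 lie where the mRNA enters the ribosome. The S3 gene AT5G35530 was at 120 and 78.9 FPKM in W, at 63.7 and 54.6 in S1 and at 77.8 and 62.7 in S3. It changed by -0.71 in S1/W and by -0.47 in S3/W and was not called in any comparison. The protein Sa has a main gene, P40, at 317 and 219 FPKM in W and 89.3 and 70.7 in S3, and a minor gene, RPSAb, whose highest value was 5.65 FPKM. RPS5A, whose promoter is widely used to mark dividing cells, stood at 254 and 186 FPKM in W and 120 and 103 in S3. Its -0.97 in S3/W was short of the threshold, whereas the paralog RPS5B fell by 1.96 on the log2 scale (adjusted p = 0.00156). Summed over the members of a protein, the FPKM in S3 was between 26.4% of W, for the single L7 member, and 69.8%, for L10. The further L7 genes AT2G44120 and AT3G13580 are outside this sum. AT2G44120, at 113 and 72.1 FPKM in W and at 23.01 and 19.0 in S3, was lower in S3/W, while AT3G13580, at 53.2 and 39.7 FPKM in W and at 53.7 and 48.8 in S3, was not called.

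The RACK1 genes declined at unequal rates. RACK1A, listed as ATARCA (AT1G18080), is the most abundant of them and was at 265 and 180 FPKM in W, at 128 and 104 in S1 and at 79.3 and 70.8 in S3. RACK1B (AT1G48630) was at 72.02 and 43.3 FPKM in W, at 19.0 and 15.5 in S1 and at 8.91 and 7.36 in S3. RACK1C (AT3G18130) was at 53.5 and 30.7 FPKM in W, at 16.9 and 10.7 in S1 and at 4.85 and 4.37 in S3. For each of them the libraries of the 3 conditions did not overlap, and W was the highest and S3 the lowest. This was not particular to RACK1. RPL24A and the main P0 gene AT3G09200, for example, showed the same order without overlap, and the share among all genes was not counted. In S3/W the change was -1.53 (SE 0.22, adjusted p = 0.00286) for RACK1A, -2.64 (SE 0.27, adjusted p = 0.000887) for RACK1B and -2.89 (SE 0.33, adjusted p = 0.0013) for RACK1C, the largest fall of the 58 genes. In S1/W, RACK1B (-1.65, adjusted p = 0.00503) and RACK1C (-1.52, adjusted p = 0.0132) were lower and RACK1A, at -0.91 (adjusted p = 0.0189), was not. The S1/W call of RACK1B was lost without S1 replicate 2, and that of RACK1C without any of 4 libraries (W replicate 1, S1 replicate 2 and either of S3). The S3/S1 call of RACK1C (-1.37, adjusted p = 0.0314) was lost without any of the S1 or S3 libraries. RACK1A made up 67.8% and 70.9% of the RACK1 transcripts in W, 78.2% and 79.9% in S1, and 85.2% and 85.8% in S3. Its log2 ratio to RACK1B rose by 1.11 (SE 0.11, adjusted p = 0.000166) and its ratio to RACK1C by 1.36 (SE 0.14, adjusted p = 0.000253) from W to S3.

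These ratios belong to a comparison of the paralogs of the same protein. The log2 ratio of the FPKM of 2 paralogs, each with 1 added, was taken within each library, so that the scaling of the library and most of the offset between replicates drop out. For the 43 pairs of paralogs in the 22 proteins with more than 1 gene, the change of the ratio was fitted together with the reciprocal best-matching protein pairs of the genome, 5701 pairs in all. A ratio change of at least 1 with an adjusted p of at most 0.05 was found for 8 of the 43 pairs (18.6%) in S1/W, 4 (9.30%) in S3/S1 and 14 (32.6%) in S3/W. Of all pairs, 36.4%, 20.8% and 39.3% changed by that measure, a larger share than among the ribosomal paralogs in each comparison. This difference was not tested. In all, 15 pairs in 9 proteins changed in some comparison. The counts moved little when single libraries were left out, to between 7 and 9 pairs in S1/W and between 14 and 16 in S3/W. Without S1 replicate 2, however, 7 pairs changed in S3/S1. Pairs with identical proteins were among them, with 4 of 8 such pairs changed and 11 of the other 35. The changed identical pairs were of S18 and S28 and the unchanged ones of L9 and L11. Pairs of 1 protein share genes, so these counts are not of independent pairs and were not compared.

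L10 held the pair with the largest change of a ratio in S1/W. L10 joins the 60S subunit last and takes part in subunit joining in yeast. SAC52 (AT1G14320), the main L10 gene, was at 550.1 and 388 FPKM in W, at 255 and 214 in S1 and at 229 and 191 in S3. SAG24 (AT1G66580), named as a senescence-associated gene, was at 141 and 100.1 FPKM in W, at 322 and 251 in S1 and at 215 and 193 in S3. SAG24 was the only one of the 58 genes called higher in S1/W, at 1.25 (SE 0.21, adjusted p = 0.00608), and this call was lost without S1 replicate 1 (adjusted p = 0.0504). Its value in S3/W was 0.77. SAC52 changed by -0.98 (SE 0.22, adjusted p = 0.0142) in S1/W, just short of the threshold, and by -1.14 (SE 0.22, adjusted p = 0.00774) in S3/W, a call lost without W replicate 1 or S3 replicate 2. The ratio of SAC52 to SAG24 differed less between the replicates of a condition than the levels did. On the log2 scale it was 1.96 and 1.95 in W, -0.34 and -0.23 in S1 and 0.09 and -0.02 in S3. It changed by -2.23 (SE 0.10, adjusted p = 1.73e-05) in S1/W, and by between -2.29 and -2.18 when each library was left out. Its change in S3/W was -1.91, which is smaller than those of pairs of S28, S21, S18 and S9. SAC52 thus held 78.1% and 77.8% of the L10 transcripts in W and 43.6% and 45.2% in S1. RPL10B (AT1G26910) was minor, at 13.7 and 10.5 FPKM in W, at 7.97 and 8.53 in S1 and at 5.85 and 6.03 in S3. With SAG24 included, the L10 members together kept the highest share of their W level among the sums over the members of each of the 26 proteins. The 3 proteins are between 94.1% and 96.8% identical.

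**Figure D3:**
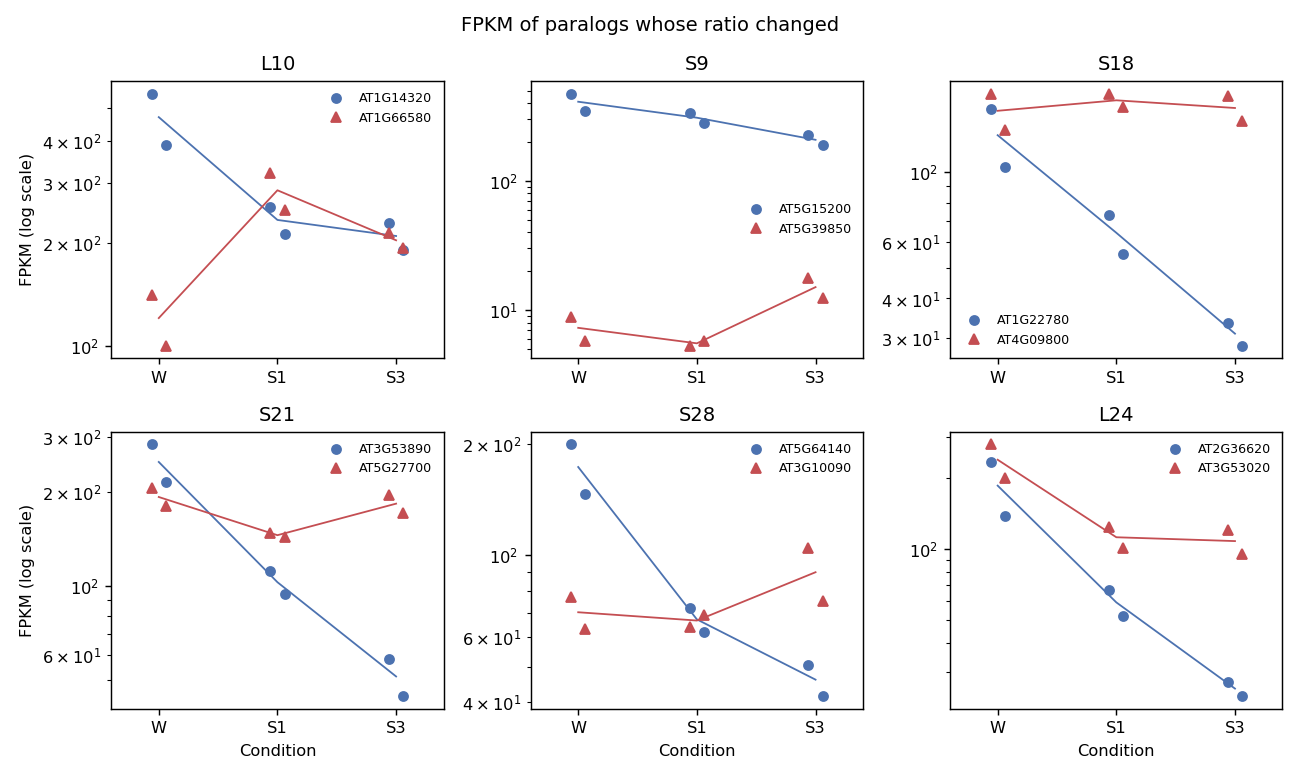
FPKM on a log scale of 2 paralogs each of L10, S9, S18, S21, S28 and L24 in W, S1 and S3. Points are replicates and lines join the means. In each panel the paralogs approach, cross or part, as for L10, where SAG24 (AT1G66580) rises above SAC52 (AT1G14320) in S1.

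In S9 a minor copy was called higher in the third stress than in the first. The minor S28 copy AT3G10090 also had a positive value in S3/S1, at 0.41, but was not called. AT5G15200 was at 474 and 346 FPKM in W, at 336 and 281 in S1 and at 227 and 189 in S3. Its changes of -0.40 in S1/W and -0.96 (SE 0.20, adjusted p = 0.0116) in S3/W did not reach the threshold. AT5G39850 was at 8.77 and 5.80 FPKM in W, at 5.31 and 5.74 in S1 and at 17.7 and 12.4 in S3. It was the only one of the 58 genes that was higher in S3/S1, at 1.28 (SE 0.24, adjusted p = 0.0162). That call was lost without any of the S1 or S3 libraries (adjusted p up to 0.119), although the value stayed between 1.04 and 1.52. The ratio of AT5G15200 to AT5G39850 fell by 1.85 on the log2 scale in S3/S1 (SE 0.15, adjusted p = 0.000261), and by between 1.67 and 2.02 with each library left out. AT5G39850 made up 1.82% and 1.65% of the S9 transcripts in W and 7.23% and 6.16% in S3. The proteins are 88.4% identical.

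S21 crossed over. AT3G53890 was at 284 and 215 FPKM in W, at 112 and 93.8 in S1 and at 58.1 and 44.2 in S3, a change of -2.26 (SE 0.20, adjusted p = 0.000649) in S3/W. Its -1.26 in S1/W passed the test (adjusted p = 0.00514), but not without S1 replicate 2. AT5G27700 was at 205 and 180 FPKM in W, at 148 and 143 in S1 and at 196 and 171 in S3. It was not called in any comparison, and its S3 libraries overlapped those of W. AT3G53890 held 58.1% and 54.4% of the S21 transcripts in W, 43.0% and 39.6% in S1, and 22.9% and 20.6% in S3. Their log2 ratio fell by 1.33 in S3/S1 (SE 0.13, adjusted p = 0.000556) and by 2.19 in S3/W (SE 0.13, adjusted p = 3.31e-05). Their proteins are 93.9% identical, over 82 residues.

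The upstream sequences of the S9 and S21 pairs are shown as examples, chosen after their values were seen, of changed pairs in which the copies also differ in the motifs that ribosomal protein promoters of plants commonly carry. These are the telo box, searched as AAACCCTA, and the site II motif, searched as TGGGCC or TGGGCT, both on either strand, where overlapping matches on opposite strands count separately and neither motif lies within the other. Each stretch is the 250 bases before the annotated gene start, 5′ to 3′ in the direction of the gene, from the TAIR10.1 RefSeq assembly, and the capitals mark the matches. AT5G15200 lies on the minus strand (chr5:4936430-4936679), AT5G39850 on the plus strand (chr5:15949660-15949909), AT3G53890 on the minus strand (chr3:19956450-19956699) and AT5G27700 on the minus strand (chr5:9808514-9808763).
AT5G15200: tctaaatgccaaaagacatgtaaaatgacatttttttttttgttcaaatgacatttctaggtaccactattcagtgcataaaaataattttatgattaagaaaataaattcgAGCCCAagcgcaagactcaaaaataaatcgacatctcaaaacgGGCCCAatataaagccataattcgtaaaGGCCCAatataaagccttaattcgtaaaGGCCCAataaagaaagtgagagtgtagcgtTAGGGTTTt
AT5G39850: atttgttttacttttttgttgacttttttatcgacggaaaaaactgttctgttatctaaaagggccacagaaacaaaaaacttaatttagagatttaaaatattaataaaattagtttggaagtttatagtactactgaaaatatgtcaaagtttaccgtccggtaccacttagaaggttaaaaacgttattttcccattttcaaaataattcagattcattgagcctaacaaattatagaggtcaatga
AT3G53890: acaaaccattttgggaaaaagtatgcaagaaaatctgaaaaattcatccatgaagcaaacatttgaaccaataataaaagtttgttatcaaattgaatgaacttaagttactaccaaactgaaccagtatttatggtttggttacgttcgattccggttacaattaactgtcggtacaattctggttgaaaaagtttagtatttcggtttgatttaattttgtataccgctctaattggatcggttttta
AT5G27700: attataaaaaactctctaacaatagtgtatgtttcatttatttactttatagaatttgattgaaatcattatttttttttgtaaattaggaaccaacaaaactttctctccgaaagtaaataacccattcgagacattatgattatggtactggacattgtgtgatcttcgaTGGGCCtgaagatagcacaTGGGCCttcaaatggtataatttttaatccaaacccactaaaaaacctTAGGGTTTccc
AT5G15200 holds 4 site II matches and 1 telo box, and AT5G27700 2 site II matches and 1 telo box, with the telo box 9 and 11 bases before the start. The windows of AT5G39850 and AT3G53890 hold neither. In the S9 pair the copy without matches was the one that rose at the third stress, and in the S21 pair the copy without matches was the one that fell. Changed pairs of L24, S10, S7 and S18 differed in matches as well. In L24 and S10 the copies without matches, RPL24A and AT5G52650, had the more negative change in S3/W, compared with STV1 (5 site II matches) and RPS10B (3). In S7 it was the copy with matches, AT5G16130 (2 site II matches and 1 telo box), and not AT1G48830. In S18, AT1G34030 has 1 site II match and PFL and RPS18C have none. The third S10 copy, AT4G25740, has 2 site II matches and also fell, by -1.94 in S3/W. In S28, which also held changed pairs, no copy has a match, and in L10 and RACK1 every copy has a site II match.

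Over the 58 genes, site II was present in 38 (65.5%), compared with 19.2% of 27444 genes with such a window, and the telo box in 10 (17.2%), compared with 4.49%. Both were present in 6 genes and neither in 16. Genes with and without each motif were among those called lower. Among the 38 genes with site II, 14 were lower in S1/W and 28 in S3/W, with medians of -0.92 and -1.32. Among the 20 without it, 12 and 15 were lower, with medians of -1.08 and -1.62. Of the 10 genes with a telo box, 5 and 6 were lower, with medians of -0.998 and -1.40, and of the 48 without it 21 and 37, with medians of -0.97 and -1.36. These are matches of letters and not sites of binding.

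S18 and S28 split between copies that encode the same protein. S18 sits in the head of the 40S subunit and contacts the 60S subunit. Its 3 genes encode identical proteins. PFL (AT1G22780), whose mutant has pointed first leaves, was at 157 and 104 FPKM in W, at 73.4 and 55.3 in S1 and at 33.6 and 28.4 in S3. Its change was -0.99 (SE 0.25, adjusted p = 0.0217) in S1/W, which is short of the threshold, -1.02 (SE 0.25, adjusted p = 0.0326) in S3/S1 and -2.01 (SE 0.25, adjusted p = 0.00172) in S3/W, and the call in S3/S1 was lost without any of the S1 or S3 libraries. RPS18C (AT4G09800) was at 176 and 135 FPKM in W, at 176 and 159 in S1 and at 173 and 145 in S3, with overlap between all conditions. The log2 ratio of PFL to RPS18C fell by 2.05 in S3/W (SE 0.13, adjusted p = 3.9e-05). It fell by 1.11 in S1/W, a call lost without W replicate 1 or S1 replicate 2. AT1G34030 declined in S1 and remained there, at 141 and 102 FPKM in W, at 53.9 and 46.7 in S1 and at 53.5 and 47.3 in S3. RPS18C thereby made up 37.1% and 39.7% of the S18 transcripts in W, and 66.5% and 65.6% in S3.

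S28 is among the smallest 40S proteins and lies near the mRNA exit. AT3G10090 was at 76.95 and 63.3 FPKM in W, at 64.1 and 69.1 in S1 and at 105 and 75.2 in S3, and was not called in any comparison. RPS28 (AT5G64140) was at 200 and 147 FPKM in W, at 72.1 and 62.0 in S1 and at 50.6 and 41.6 in S3, a change of -1.88 (SE 0.19, adjusted p = 0.000904) in S3/W. AT5G03850, which encodes the same 64 residues as AT3G10090, was at 343 and 238 FPKM in W, at 154 and 145 in S1 and at 118 and 94.1 in S3. In S3/W the log2 ratio of AT3G10090 rose by 2.22 (SE 0.15, adjusted p = 4.15e-05) against RPS28 and by 1.77 (SE 0.13, adjusted p = 6.82e-05) against AT5G03850. The share of AT3G10090 went from 12.4% and 14.1% in W to 22.1% and 25.1% in S1, and to 38.3% and 35.7% in S3.

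**Figure D4:**
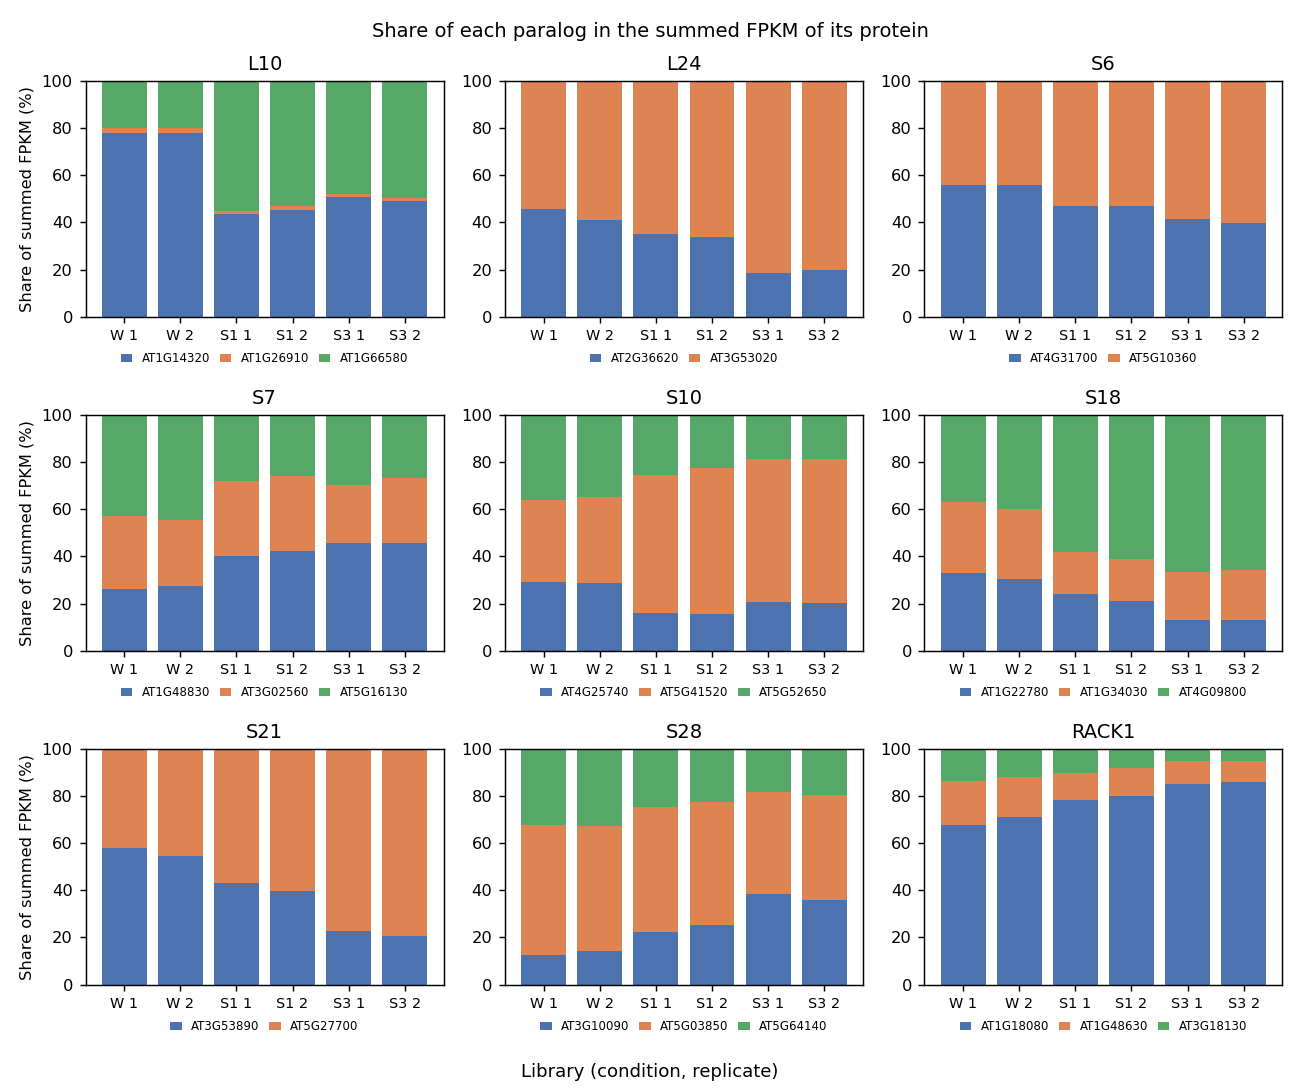
Share of each paralog in the summed FPKM of its protein, in percent, for 9 proteins in each of the 6 libraries. Colours are the paralogs named under each panel. The replicates of a condition have nearly the same shares, while the shares differ between W, S1 and S3, as for AT3G53890 in S21 (58.1% and 54.4% in W, 22.9% and 20.6% in S3).

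L24 takes part in a bridge between the subunits. RPL24A (AT2G36620) was at 233 and 138 FPKM in W, at 66.8 and 51.8 in S1 and at 27.4 and 23.7 in S3. It declined at both steps, by -1.59 (SE 0.28, adjusted p = 0.00652) and -1.18 (SE 0.28, adjusted p = 0.0301), to 13.8% of its W mean. Its S1/W call was lost without S1 replicate 2 and its S3/S1 call without any of the S1 or S3 libraries. STV1 (AT3G53020), named for the short valves of the mutant fruit and known for the reinitiation of translation after upstream reading frames, was at 278 and 200.1 FPKM in W, at 123 and 100.8 in S1 and at 121 and 95.2 in S3. Its -1.07 in S1/W and -1.13 in S3/W were called, but neither call was kept without W replicate 1, and the first was also lost without S1 replicate 2 and the second without S3 replicate 2. Both were short of the threshold once adjusted for GC content and length, at -0.99 each. RPL24A held 45.6% and 40.9% of the L24 transcripts in W and 18.5% and 20.0% in S3. The ratio fell by 1.12 in S3/S1 on the log2 scale (SE 0.13, adjusted p = 0.00086), and leaving out each library gave between 1.05 and 1.19.

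S10 and S7 shifted mainly in the first stress. RPS10B (AT5G41520) was at 196 and 145 FPKM in W, at 153 and 136 in S1 and at 111 and 97.0 in S3, and was not called. AT5G52650 was at 203 and 138 FPKM in W, at 66.2 and 49.2 in S1 and at 33.96 and 30.1 in S3. AT4G25740 was at 164 and 114 FPKM in W, at 41.7 and 33.7 in S1 and at 37.9 and 32.1 in S3, and had the largest fall of the 58 genes in S1/W, at -1.84 (SE 0.21, adjusted p = 0.00163). The 3 copies were near one another in W, and RPS10B alone made up 58.7% and 62.1% of the S10 transcripts in S1. The proteins of RPS10B and AT5G52650 are 75% identical, the lowest of the 15 changed pairs. In S7, AT5G16130 fell to 28.6% of its W mean in S1, while AT1G48830, which was not called, stood at 70.6%. Their log2 ratio changed by 1.30 (SE 0.11, adjusted p = 0.000118) in S1/W.

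Other copies declined side by side. In L23a the log2 ratio of RPL23AA to RPL23AB lay between 1.54 and 1.8 in all 6 libraries, and in L11 no pair changed by more than 0.43. The L9 genes AT1G33120 and PGY2 had ratios between -0.80 and -0.68, with a change of 0.01 in S3/W. They encode identical proteins and share 52.1% and 53.0% of their 75-base stretches, so reads may have been divided between them by the estimation and their separate values are uncertain. No other member besides these and AT2G40010 shared more than 5.30%. Among the members, the most abundant copy of a protein was the same in all 6 libraries in 16 of the 22 proteins, and changed in L4, L10, S6, S7, S10 and S21.

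The wider translation machinery was described from lists of further genes, to be read against all genes tested, of which 12.1% were lower and 13.7% higher in S1/W, 6.71% and 5.55% in S3/S1 and 14.4% and 15.3% in S3/W. Of 62 other genes tested whose product names match cytosolic ribosomal proteins, 32 were lower in S1/W, 5 in S3/S1 and 41 in S3/W, with medians of -1.01, -0.38 and -1.53. In the same comparisons 5, 1 and 4 were higher. The genes named next are among those that were lower. These were the S19 gene AT5G61170, at 214 and 156 FPKM in W and 35.5 and 28.2 in S3, and the L35a gene AT1G07070, at 53.8 and 29.9 FPKM in W and 5.48 and 4.03 in S3. Of the 5 genes of this list that were higher in S1/W, 3 are annotated as an L18ae family and 2 as an L34e superfamily, among them AT3G14595, at 38.6 and 55.6 FPKM in W and 435 and 368 in S3. These are names of protein families, and whether these 5 genes encode ribosomal proteins was not tested. An L18ae family gene among them is also counted with the genes lower in S3/S1 and in S3/W. Of 8 further genes tested that are at least 70% identical to a member, 3 were lower in S1/W and 6 in S3/W. The L28 gene AT4G29410, lower in S3/W, is in both of these lists and is counted in each. Among 21 elongation and initiation factor genes, 3 were lower and 2 higher in S1/W, and 4 were lower and 3 higher in S3/W, with medians of -0.17 and -0.27, which is close to the shares among all genes. ELF5A-3, an isoform of the factor eIF5A, was higher in S1/W and S3/W, with 31.5 and 39.5 FPKM in W, with 124 and 135 in S1 and with 309 and 230.1 in S3. TCTP, a translationally controlled protein linked to growth, was at 668 and 733 FPKM in W and at 2918 and 2786 in S3, and was higher in S3/W. PAB8, a poly(A)-binding protein, was lower in S3/W, at 47.2 and 30.7 FPKM in W and at 11.6 and 11.6 in S3. The elongation factor gene AT5G60390, the most abundant of the list in W, was also lower in S3/W. It was at 1093 and 811 FPKM in W and at 341 and 293 in S3. AT5G12110, named elongation factor 1-beta 1, was lower as well, at 11.4 and 10.3 FPKM in W and at 2.04 and 1.29 in S3. Of 8 genes for assembly of ribosomes in the nucleolus, 2 were lower in S1/W and 4 in S3/W, with a median of -1.02 in S3/W. FIB2, a fibrillarin that methylates ribosomal RNA, was at 19.8 and 7.08 FPKM in W and at 1.17 and 0.588 in S3, a call lost without either S3 library, whereas FIB1 was at 75.2 and 51.7 in W and at 65.1 and 58.6 in S3. S6K2, a kinase of S6, was higher in S1/W, at 1.40 and 1.26 FPKM in W, at 17.6 and 23.5 in S1 and at 11.3 and 9.44 in S3.

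Some marker genes of cell types moved together with these declines, and their part in the result was not tested. The summed FPKM of 8 markers of dividing cells was 18.1 and 11.9 in W, then 5.34 and 3.87 in S1 and finally 2.63 and 4.01 in S3, and 3 of the 8, CYCD3;1, CYC1BAT and ANT, were lower in S1/W. The defining meristem marker STM was listed at 0 in 5 of the 6 libraries. The sum of 6 mesophyll markers was 39995 and 31233 in W, then 34454 and 25364 in S1 and finally 12382 and 15783 in S3. Among them CAB1 and RBCS1A were listed at 0 in both W libraries, where their relatives were among the most abundant transcripts, so this sum does not describe mesophyll in W. The other 4 mesophyll markers were all lower in S1/W. The sum of 5 guard cell markers was 26.8 and 28.7 in W, then 47.4 and 44.7 in S1 and finally 28.2 and 27.98 in S3, with 1 lower and 1 higher in S1/W. The rise in S1 came from KAT1, at 5.59 and 5.16 FPKM in W and at 33.1 and 34.2 in S1, whereas MYB60 was at 8.42 and 10.6 in W and at 1.55 and 0.967 in S1. Of 5 root markers, 2 were at 0 in all libraries, and the sum was 0.662 and 1.16 in W, then 1.71 and 3.56 in S1 and finally 26.3 and 22.8 in S3, nearly all of it from PYK10.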

How the data were processed

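Rosette leaf mRNA of 2 plant samples per condition (W, S1, S3) had been sequenced. The authors mapped the reads, of 101 bases in W and 75 bases in S1 and S3, to TAIR10 with tophat and bowtie at default parameters, and deposited cuffdiff FPKM values per gene and replicate. The submitters' processing notes name CASAVA 1.8.2, TopHat 0.12.8 and Cuffdiff. FPKM were used as deposited, with no further scaling. Fragment counts per gene were not used, and precision is given only by the spread between the replicates. The study lists fewer mapped reads for each W library than for any S1 or S3 library.

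Groups follow the stress label. One limma 3.58.1 fit in R 4.3.3 with moderation by a variance trend on log2(FPKM + 1) (pseudocount 1) of 24759 genes with a value above 0 in any library gave all comparisons, with 3 residual and 2.07 prior degrees of freedom. The study's further criterion, an FPKM above the 25th percentile, was taken here over the listed genes, where that percentile was 0, and so removed none. Paralog ratios were fitted likewise over 5701 pairs. Proteins were translated from the TAIR10.1 RefSeq coding sequences and paired with BLAST 2.17.0, and 58 of 58 loci were found in that annotation. Stretches of 75 bases shared exactly between transcripts were counted. Scripts used Python 3.11.15, pandas 2.3.3, numpy 2.4.6, biopython 1.88 and matplotlib 3.10.9, and the fits were tested on simulated data.

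The members, the gene lists and the tests were chosen with earlier results of these data known. Values with full statistics are given for the RACK1 and P0 genes, for up to 12 members called in both S1/W and S3/S1, for members higher than in W and for the genes of up to 10 pairs with the most changed ratio, and of each further list at most 5 genes with the largest S3/W change; FIB1, STM and the S3, S5 to S8, L3 to L8 and Sa genes given with values were chosen after these were seen. Alternatives were other scalings, a pseudocount of 0.1, a minimum of 1 FPKM, no fold criterion, no variance trend, only the 4 libraries compared, a replicate block, an adjustment for GC content and length of the transcripts, alone and together with the block, members with under 10% shared stretches, and each library left out. With 2 libraries per group no search for outlying samples was made. The comparison with genes of at least 50 FPKM was added after seeing the data, first by the W level and then by the mean over all libraries, and both are given.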

Additional observations from a re-analysis of the deposited data

How the results depend on the processing

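No called value of the 24 members given with full statistics changed direction under any alternative, and no called pair ratio did so with a library left out. The other members were followed only through the counts and medians. Of the values of the 24 members, 8 that were not called and lay near 0 changed sign under some alternative, with those of AT4G09800 in S3/W between -0.15 and 0.22 and those of AT3G11250 in S3/S1 between -0.15 and 0.13 when single libraries were left out. The uncalled S9 ratio in S1/W lay between -0.25 and 0.10. Without the criterion on the fold change, 43 members were lower in S1/W, 9 in S3/S1 and 2 were higher in S3/W, and 26, 19 and 31 paralog pairs changed in S1/W, S3/S1 and S3/W. The shares of all genes and of all pairs without this criterion are not given here. Scaling the libraries to the same sum left 2 members lower in S3/S1 (6.0% of all genes), and gave 36 lower in S1/W (13.3% of all genes). A pseudocount of 0.1 gave 7 lower in S3/S1, where 9.98% of all genes were lower, and 1 higher in S3/W, where 20.6% of all genes were higher. The cause of these differences was not tested, apart from the looser criterion itself. With each library left out in turn, between 5 and 39 members were lower and between 0 and 1 higher in S1/W, between 0 and 4 lower and between 0 and 1 higher in S3/S1, and between 30 and 50 lower and between 0 and 2 higher in S3/W. The median of the members then lay between -1.247 and -0.6873 in S1/W and between -1.639 and -1.109 in S3/W, and between 3 and 7 pairs changed in S3/S1. A left-out library leaves 1 sample in its condition, which is assumed to vary like the others. With the replicate number as a block, 26 members were lower in S1/W, 4 in S3/S1 and 44 in S3/W. Of all genes, 12.1%, 6.62% and 14.3% were lower in this setting. Whether the replicate numbers pair the samples was not settled. Replicate 1 deviations over 14373 genes correlated at 0.17 between W and S1, 0.02 between W and S3 and -0.01 between S1 and S3. Among the members, however, replicate 1 was the higher in 58, 55 and 54 of the 58 genes in W, S1 and S3. Of the values of these 24 members under all alternatives, 324 kept their side of the threshold in S1/W, 20 passed it newly and 16 no longer passed it, with 329, 5 and 26 in S3/S1 and 339, 14 and 7 in S3/W. The 2 replicates per condition limit all calls to changes well above the offset between replicates, and the counting error of low values such as those of AT2G40010 and AT5G59240 was not estimated.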
